A study of Mus musculus with 10 samples.

Results

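The fibroblast growth factor (FGF) system was followed across prostate orthografts of 3 mouse cancer cell lines through 39 genes, out of 47069 gene identifiers counted. The genes were taken by name: every protein-coding Fgf gene with a number (22), the receptor genes Fgfr1 to Fgfr4 and Fgfrl1 (5), and 12 feedback regulators and transcription factors of the ERK pathway, namely Spry1 to Spry4, Spred1 to Spred3, Dusp4, Dusp6, Etv1, Etv4 and Etv5. The rule uses gene names and no expression value.

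Each tumour was bulk RNA from an orthograft, a tumour grown from cells placed in the organ of origin. Cells of 1 line were injected into an anterior prostate lobe of male CD-1 Nude mice. These athymic hosts keep their own stroma, vessels and part of their immune cells. P1 orthografts (n = 3) were grown from a line whose donor was 14 months old. CP1 (n = 3) and CP2 (n = 4) orthografts were grown from lines of Ctnnb1pc(ex3)Δ/+ donors, 6 and 8 months old. All donors carried prostate tumours. This allele lacks the exon that carries the phosphorylation sites for degradation of beta-catenin and thereby stabilises the protein. Other parts of the donor genotypes differ as well. The sources used here do not say what drove recombination in the donors. Each group is 1 line, so line, genotype and donor age cannot be told apart. Nothing in the labels assigns a library to its own animal, and the spread on which p-values rest may be partly technical. CP2 replicate 1 is titled as CP1 but has the tissue and source entries of CP2. It was analysed as CP2, and its Fgfrl1 level of 195 CPM lay within the range of the other CP2 tumours and far above that of CP1.

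FGF ligands are secreted proteins that bind, together with heparan sulphate, to receptor tyrosine kinases on the cell surface. The activated receptor docks the adaptor FRS2 and switches on Ras and the ERK kinases, which raise transcription of the PEA3 group of ETS factors (Etv1, Etv4 and Etv5) and of inhibitors of the same pathway: Sprouty and Spred proteins, which act at the level of Ras and Raf, and the dual-specificity phosphatases DUSP4 and DUSP6, which remove the activating phosphates from ERK. Many receptor tyrosine kinases besides those for FGF feed into ERK. In the prostate, FGF7 and FGF10 are classically made by the stroma and act on a splice form of FGFR2 in the epithelium. Fgf11 to Fgf14 encode intracellular proteins that bind sodium channels and are not receptor ligands in the usual sense, although they belong to the family by sequence.

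Libraries held 18800912 to 37180721 counts, and 3 counts in a library corresponded to 0.0924 to 0.154 CPM (counts scaled to a common, TMM-adjusted library total), so levels near or below this were little more than detection. The epithelial markers, 8 genes led by keratins, claudins and Epcam, took 0.828% to 1.85% of the counts in P1, 0.0744% to 0.152% in CP1 and 0.0242% to 0.0459% in CP2. Epcam stood at 1103 ± 217 CPM (SD, n = 3) in P1, 21.7 ± 8.51 (n = 3) in CP1 and 13.4 ± 3.40 (n = 4) in CP2. Of the defining genes of prostate tissue, Hoxb13 was present throughout (50.1, 56.7 and 50.3 CPM on average) and Msmb had 0 counts in CP2. The CP tumours thus carried less of these 8 epithelial genes than P1 under their prostate label. Of 5 basal epithelial markers, 3 were called higher and 2 lower in CP1 than in P1. Of 7 urothelial markers, 6 were called higher and 0 lower in CP1. Seminal vesicle transcripts made up 15.1%, 6.85% and 1.82% of the P1 libraries (replicates 1, 2 and 3) and at most 0.169% in any CP tumour. In bulk samples, fewer cells of a type and less RNA per cell cannot be told apart.

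Counts were compared between lines with edgeR's quasi-likelihood test over all 17644 genes that passed a filter on low counts, and the threshold for a call was an adjusted p (Benjamini-Hochberg) of 0.05. Of the 39 genes, 25 were tested: 8 of the 22 Fgf genes, all 5 receptor genes and all 12 feedback genes and targets. Fgfr4 and Fgf13 passed the filter through the P1 tumours alone, and Spry3 mainly through CP2, so for these genes a difference followed from passing. They are included in the counts that follow. CP1 and CP2 were both compared with the same 3 P1 tumours. In CP1, 8 of the 25 genes were higher and 6 lower than in P1, where 22.4% of all genes tested were higher, 22.4% lower and 44.8% called either way. In CP2, 12 of 25 were higher and 7 lower than in P1, against 28.3%, 28.4% and 56.7% of all genes. Between the CP lines, 10 of 25 were higher and 1 lower in CP2, against 21.3%, 21.9% and 43.3%. A called difference of at least 2-fold was seen in 12, 19 and 8 of the 25 in these 3 comparisons, beside 25.0%, 30.2% and 20.8% of all genes. The tumours of the lines compared did not overlap for 19, 20 and 13 of the 25, beside 50.8%, 60.1% and 52.3% of all genes. The median absolute log2 fold change of the 25 was 1.20, 1.84 and 0.61 in the 3 comparisons, beside 0.49, 0.59 and 0.46 over all genes. Of the 8 ligand genes tested, none was called higher than P1 in either CP line; at an unadjusted p below 0.05 the counts were 0 in CP1 and 1 in CP2, and DESeq2 called 0 in both. With no filter on low counts, 20 ligand genes were tested, and 0 were higher in CP1 and 2 in CP2. Receptor genes moved both ways. Of the 12 feedback genes and targets, 7 were higher in CP1 and 10 in CP2.

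**Figure D1:**
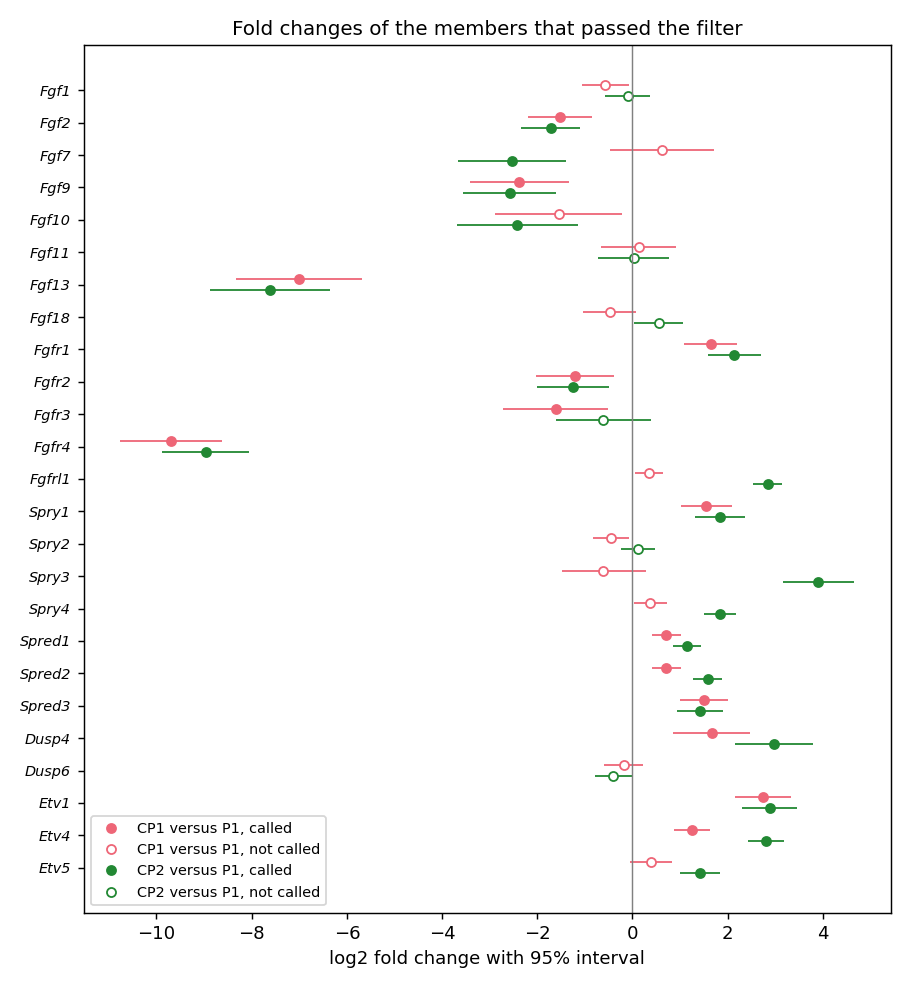
Log2 fold changes of the 25 tested genes in CP1 and in CP2 against P1 (horizontal axis), with 95% intervals as bars; filled symbols were called at an adjusted p below 0.05 and open symbols were not. The receptor Fgfr4 and the family member Fgf13 lie farthest to the left in both comparisons, and most feedback genes and targets lie to the right of 0.

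The largest log2 fold change among the 25 genes was that of a receptor. In P1 the largest share of receptor transcripts came from Fgfr4, and in both CP lines it came from Fgfr1. Fgfr4, whose product is best known for binding FGF19-type hormones in the liver, was near 0 in every CP tumour. Fgfr1, the main receptor of mesenchymal cells, was 3.12-fold higher in CP1 and 4.42-fold higher in CP2 than in P1. Fgfrl1, which encodes a receptor-like protein without a kinase domain, was raised in CP2. To show the sequence at an annotated start, the promoter windows of the receptor gene with the largest fall and of the one with the largest rise are given 5′ to 3′ on the + strand, from RefSeq (GRCm38.p6). Each covers 250 bases before to 50 bases after that start, which lies inside the gene span of the counting annotation given below, so counted transcripts need not begin there. Capitals mark a match to CCGGAAGT, an extended motif to which ETS factors bind. Shorter forms of this motif were not searched.

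Fgfr4, chr13:55152568-55152867: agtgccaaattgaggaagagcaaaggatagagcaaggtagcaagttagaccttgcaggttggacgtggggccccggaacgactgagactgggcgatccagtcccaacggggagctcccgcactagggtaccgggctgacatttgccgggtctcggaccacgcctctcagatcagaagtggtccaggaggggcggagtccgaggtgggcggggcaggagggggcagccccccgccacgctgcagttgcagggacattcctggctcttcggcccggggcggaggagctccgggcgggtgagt

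Fgfrl1, chr5:108693979-108694278: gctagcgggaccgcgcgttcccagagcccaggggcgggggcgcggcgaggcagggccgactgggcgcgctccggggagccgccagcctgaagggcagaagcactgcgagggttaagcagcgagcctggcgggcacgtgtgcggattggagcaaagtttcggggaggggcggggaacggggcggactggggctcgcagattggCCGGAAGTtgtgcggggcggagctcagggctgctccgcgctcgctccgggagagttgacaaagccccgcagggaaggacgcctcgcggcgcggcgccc

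The Fgfrl1 window holds CCGGAAGT at bases 203 to 210, counted from its 5′ end, and the Fgfr4 window holds no match on either strand. Windows of this length existed for 28 of the 39 genes (37 windows), and CCGGAAGT was found on either strand in that 1 window among them, against 3.89% of 32851 windows of all genes. The motif CTTTGAT, recognised by the TCF partners of beta-catenin, was found in 1 window of the 39 genes, that of Fgf6, against 3.73% of all windows. No window of these genes held both motifs. A match is a string of letters and not a bound site, and the search was added after the expression values had been seen.

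Fgfr4 (ENSMUSG00000005320, GRCm38 chromosome 13: 55152640 to 55168759) stood at 74.3, 102 and 101 CPM in the P1 tumours. Its level was 0.106, 0.130 and 0.0810 CPM in CP1 and 0.308, 0.0982, 0.319 and 0 CPM in CP2. All CP values lay far below all P1 values, and they rest on 9 counts in the 3 CP1 libraries and 15 in the 4 CP2 libraries, against 8462 in P1. The log2 fold change was -9.69 ± 0.48 (SE) in CP1 and -8.97 ± 0.41 in CP2. Fgfr4 passed the filter through P1 alone, so a difference followed from passing and no p-value against P1 is given. Without P1 replicates 1 and 2, the libraries with most seminal vesicle transcripts, the values were -9.85 in CP1 and -9.12 in CP2. Against P1, the Fgfr4 level moved with the epithelial markers. Of these, 7 of 8 were lower in CP1 and 8 of 8 in CP2, with none at 0 counts in either line. Between the CP lines, 6 of the 8 were called lower in CP2, while Fgfr4 was not called. The part of these markers in the result was not tested.

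Fgfr1 (ENSMUSG00000031565, chromosome 8: 25513654 to 25575718) was counted at 73.5, 40.4 and 44.0 CPM in P1. CP1 tumours had 142, 161 and 190 CPM, and CP2 tumours 272, 234, 167 and 257 CPM. Every CP tumour exceeded every P1 tumour, while the 2 CP lines overlapped. Fgfr1 rose on the log2 scale in CP1 by 1.64 ± 0.25 (adjusted p = 4.832e-04), and in CP2 by 2.14 ± 0.25 (adjusted p = 5.640e-05). The fibroblast markers, 10 genes, took 0.504% to 0.864% of the counts in P1, 1.5% to 2.34% in CP1 and 0.863% to 1.07% in CP2. Their summed level was thus highest in CP1, whereas the mean of Fgfr1 was highest in CP2. Of the 10 markers, 3 were called higher and 1 lower in CP1, and 5 higher and 4 lower in CP2, and their part in the result was not tested.

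Fgfr2, the receptor of FGF7 and FGF10 in epithelia (ENSMUSG00000030849, chromosome 7: 130162451 to 133123350), stood at 67.2, 102 and 62.8 CPM in P1. In CP1 it stood at 16.3, 47.8 and 36.6 CPM, and in CP2 at 41.7, 33.0, 21.8 and 33.9 CPM. The lines did not overlap with P1, and CP1 replicate 1 was the lowest of all 10 tumours. The gene fell on the log2 scale in CP1 by 1.20 ± 0.37 (adjusted p = 0.0225), and in CP2 by 1.24 ± 0.34 (adjusted p = 0.0102). Both calls were fragile. Without P1 replicate 2, its highest tumour, the CP1 value was -0.97 (adjusted p = 0.0788), and without CP1 replicate 3 it was -1.26 (adjusted p = 0.0502). With P1 replicates 1 and 2 both removed the values were -0.93 in CP1 and -0.97 in CP2 (adjusted p = 0.185 and 0.134), and with CP1 replicates 2 and 3 removed the CP1 value was -2.24 (adjusted p = 0.0047). The counts do not tell the epithelial and mesenchymal splice forms of Fgfr2 apart. Exons of Fgfr2 share 314 bases, 3.04% of their length, with Ctbp2 on the same strand. Ctbp2 had 70.0, 90.8 and 81.0 CPM on average in P1, CP1 and CP2.

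Fgfr3 (ENSMUSG00000054252, chromosome 5: 33721674 to 33737068), a receptor also known from the bladder lining, measured 41.5, 47.1 and 25.2 CPM in P1. It measured 3.53, 19.4 and 14.4 CPM in CP1 and 21.1, 30.1, 19.5 and 28.5 CPM in CP2. CP1 lay below both other lines, and CP2 overlapped with P1. The fall of 1.61 ± 0.49 in CP1 was called (adjusted p = 0.0230) and the value of -0.61 ± 0.45 in CP2 was not (95% interval -1.61 to 0.38, adjusted p = 0.266), although it was called at -0.62 without CP1 replicate 1 (adjusted p = 0.0483) and in a fit of P1 and CP2 alone (adjusted p = 0.0495). The CP1 call was lost without P1 replicate 2 (-1.44, adjusted p = 0.0662), in a fit of the 2 lines alone (-1.62, adjusted p = 0.0660) and after removal of P1 replicates 1 and 2 (-1.04, adjusted p = 0.267), and the value was -3.42 with CP1 replicates 2 and 3 removed (adjusted p = 0.0010). Urothelial markers, 7 genes, took 0.00575%, 0.136% and 0.0539% of the counts in CP1 replicates 1, 2 and 3 and 0.00425% or less elsewhere, and 6 of the 7 were called higher in CP1 than in P1. Basal epithelial markers, 5 genes, took 0.00657%, 0.0955% and 0.0602% in the same tumours and 0.0195% to 0.0378% in P1. Of these 5, 3 were called higher and 2 lower in CP1 than in P1. The general epithelial markers, 8 genes, took 0.0744%, 0.152% and 0.130% in CP1 replicates 1, 2 and 3. Fgfr2, Fgfr3 and these marker lists thus had the same order in the CP1 tumours, lowest in replicate 1 and highest in replicate 2. The part of these cells in the result was not tested. Exons of Fgfr3 share 998 bases with the antisense locus G630022F23Rik, which had at most 0.223 CPM on average in any line.

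Fgfrl1 (ENSMUSG00000008090, chromosome 5: 108692382 to 108706924) stood at 27.9, 27.4 and 22.3 CPM in P1 and at 32.5, 29.6 and 36.6 CPM in CP1. CP2 tumours had 195, 203, 155 and 193 CPM. The 4 CP2 tumours thus stood apart from the other 6, and CP1 lay just above P1 without overlap. The rise in CP2 was 2.85 ± 0.14 against P1 (adjusted p = 4.245e-07) and 2.50 ± 0.13 against CP1 (adjusted p = 2.488e-06). For CP1 against P1 the value was 0.34 ± 0.13 and not called (95% interval 0.05 to 0.64, adjusted p = 0.0578), but was called without CP1 replicate 2 (0.42, adjusted p = 0.0449) or CP2 replicate 3 (0.35, adjusted p = 0.0381).

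**Figure D2:**
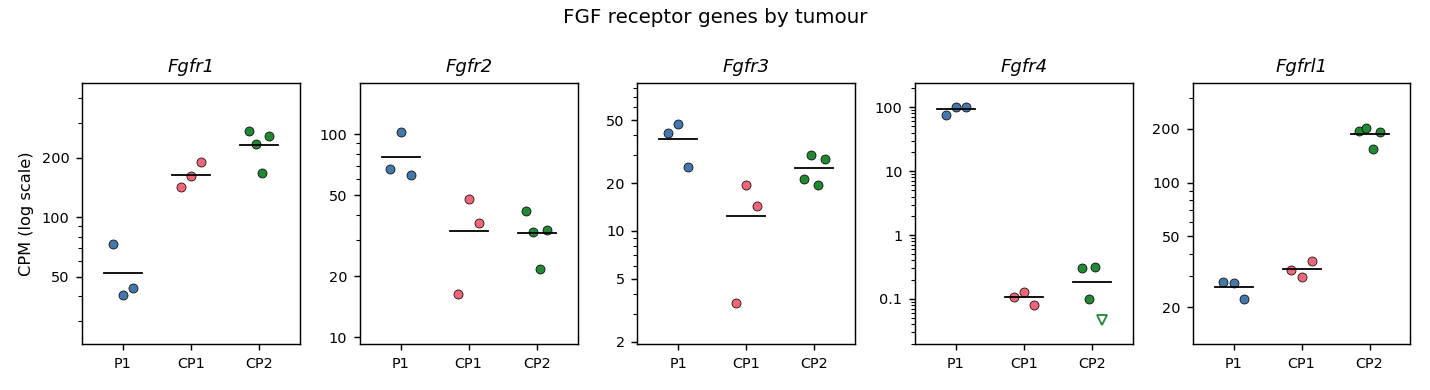
Levels of the 5 receptor genes in each tumour (dots; CPM on a log axis) in P1, CP1 and CP2, with the group mean as a black line; an open triangle marks 0 counts, drawn at the CPM of 1 count. Fgfr4 drops from about 100 CPM to near detection in both CP lines, and Fgfrl1 separates the 4 CP2 tumours from the other 6.

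For comparison between genes, CPM were divided by the length of the merged exons in kilobases. By this measure Fgfr4 made up 59.0% ± 7.79 (SD, n = 3) of the summed Fgfr1 to Fgfr4 level in P1, 0.143% ± 0.0459 (n = 3) in CP1 and 0.188% ± 0.182 (n = 4) in CP2. Fgfr1 made up 12.3% ± 5.26 in P1, 77.9% ± 9.17 in CP1 and 77.8% ± 1.43 in CP2. The mean Fgfr1 shares of the CP lines differed by less than the spread between their tumours. Fgfr2 took 16.7%, 14.5% and 10.4%, and Fgfr3 11.9%, 7.50% and 11.6%. The summed level itself was 44.2 ± 4.54 CPM per kb in P1, 21.7 ± 4.54 in CP1 and 30.2 ± 5.76 in CP2. Within it, the mean of Fgfr4 went from 26.1 to 0.0298 and 0.0512 CPM per kb, and that of Fgfr1 from 5.33 to 16.6 and 23.6. Fgfrl1, which has no kinase, was not part of this sum. Its own level was 9.30 ± 1.12 CPM per kb in P1, 11.8 ± 1.26 in CP1 and 67.0 ± 7.72 in CP2, which in CP2 is above the sum of all 4 kinase receptors.

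**Figure D3:**
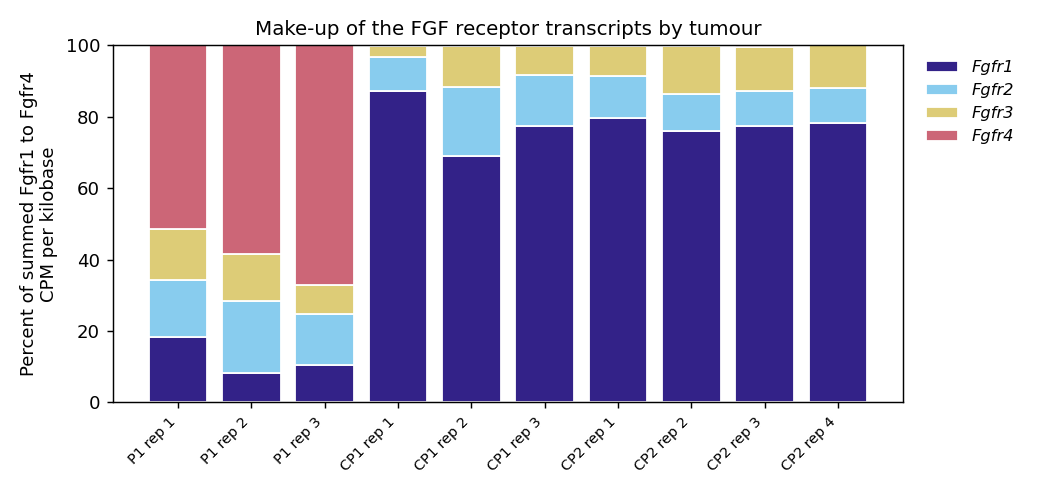
Share of Fgfr1, Fgfr2, Fgfr3 and Fgfr4 in their summed level (percent of CPM per kilobase of exon) in each of the 10 tumours, as stacked bars. Fgfr4 fills 51.5% to 67.1% of the P1 bars and at most 0.412% of any CP bar, where Fgfr1 fills 68.9% to 87.2%.

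Among the Fgf genes, most that could be tested were lower in the CP lines or did not differ by the test. The paracrine ligand genes Fgf2, Fgf7, Fgf9 and Fgf10 and the intracellular Fgf13 were called lower in CP2 than in P1, and of these Fgf2, Fgf9 and Fgf13 also in CP1. These were 3 of 8 tested in CP1 and 5 of 8 in CP2, or 37.5% and 62.5%. Over all genes, 44.8% and 56.7% were called either way, and 22.4% and 28.4% were called lower. Leaving out 1 tumour at a time gave 3 to 5 of 8 or 9 tested in CP1 (5 without P1 replicate 3, as with DESeq2), and removing P1 replicates 1 and 2, or CP1 replicates 2 and 3, gave 2. Per kilobase of exon, Fgf1 was the highest of the secreted ligand genes in every line.

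Fgf1, which encodes the ligand that binds all FGF receptors, ranged from 37.7 to 64.5 CPM in P1, 28.1 to 34.5 in CP1 and 35.2 to 56.3 in CP2. It was called in no comparison (adjusted p = 0.0643, 0.704 and 0.102 for CP1 against P1, CP2 against P1 and CP2 against CP1). CP1 lay near the threshold: it was called lower than P1 without P1 replicate 1 or 3 (-0.69 and -0.72, adjusted p = 0.0496 and 0.0327) and by DESeq2 (-0.58, adjusted p = 0.0390), and CP2 was called higher than CP1 without P1 replicate 2 (0.47, adjusted p = 0.0457) and in a fit of the 2 lines alone (0.46, adjusted p = 0.0497). The mean level was 8.73, 5.89 and 8.15 CPM per kb in P1, CP1 and CP2. It made up 51.2% ± 13.8, 54.7% ± 4.12 and 65.4% ± 7.15 of the summed level of the 18 Fgf genes other than Fgf11 to Fgf14.

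Fgf2 (ENSMUSG00000037225, chromosome 3: 37348346 to 37410108), basic FGF, stood at 37.3, 19.5 and 15.3 CPM in P1. It stood at 8.97, 7.57 and 8.51 CPM in CP1 with 7.97, 6.48, 6.07 and 8.61 CPM across CP2. All 7 CP tumours were lower than all 3 P1 tumours, and P1 replicate 1 was the highest. The log2 fold changes were -1.53 ± 0.30 in CP1 (adjusted p = 0.0022) and -1.72 ± 0.28 in CP2 (adjusted p = 4.785e-04). Removal of P1 replicates 1 and 2 gave -0.90 and -1.10, still called (adjusted p = 0.0174 and 0.0046), and with CP1 replicates 2 and 3 removed the CP1 value was -1.42 and not called (adjusted p = 0.0604). Nudt6 lies antisense to Fgf2 and shares 640 exon bases with it, 9.44% of the length of Fgf2; it had 3.40, 2.15 and 3.05 CPM on average, and the sources used here do not say if the counting was stranded.

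Fgf7 and Fgf10 encode the stromal ligands of the epithelial form of FGFR2. Fgf7 (ENSMUSG00000027208, chromosome 2: 126034658 to 126091185) measured 3.48, 1.75 and 2.08 CPM across P1, 1.94, 5.39 and 3.93 across CP1 and 0.463, 0.0982, 0.593 and 0.512 across CP2. CP2 lay below both other lines, which overlapped with each other. Its fall in CP2 was 2.53 ± 0.51 on the log2 scale against P1 (adjusted p = 0.0020) and 3.15 ± 0.51 against CP1 (adjusted p = 9.283e-04). With CP1 replicates 2 and 3 removed, the value against CP1 was -2.20 (adjusted p = 0.0376). Fgf10 (ENSMUSG00000021732, chromosome 13: 118669791 to 118792115) gave 18.0, 4.77 and 3.54 CPM for P1, 3.50, 3.25 and 2.27 for CP1 and 1.85, 1.23, 0.867 and 2.61 for CP2. P1 replicate 1 stood far above the other 9 tumours, and CP1 and CP2 overlapped. Against P1 the value was -1.54 ± 0.60 in CP1, not called (95% interval -2.88 to -0.21, adjusted p = 0.0595; called at -1.86 without P1 replicate 2, at -1.93 without P1 replicate 3 and at -1.56 by DESeq2, adjusted p = 0.0415, 0.0221 and 0.0236), and -2.42 ± 0.57 in CP2, called (adjusted p = 0.0047). The CP2 value was -1.36 without P1 replicate 1 (adjusted p = 0.0164) and -1.14, not called, without P1 replicates 1 and 2 (adjusted p = 0.0986). Smooth muscle markers, 6 genes, made up 0.249%, 0.121% and 0.0944% of the P1 libraries (replicates 1, 2 and 3), 0.0529%, 0.301% and 0.451% in CP1, and 0.0194% to 0.0470% in CP2. Within P1 they were highest in the tumour with the most Fgf2, Fgf7 and Fgf10. Fibroblast markers (0.864%, 0.702% and 0.504%) and seminal vesicle transcripts (15.1%, 6.85% and 1.82%) were also highest in that P1 tumour. Of the 6 smooth muscle genes, 6 were called lower in CP2 than in P1 and 0 were called in CP1. Within CP1 the order was another for Fgf2 and Fgf10. Fgf2 was highest, at 8.97 CPM, in the tumour with the least of the smooth muscle markers. Fgf10 was lowest, at 2.27 CPM, in the tumour with the most. Fgf7 was lowest, at 1.94 CPM, in the tumour with the least and highest, at 5.39 CPM, in replicate 2. The part of these cell types in the results was not tested.

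Fgf9 (ENSMUSG00000021974, chromosome 14: 58070547 to 58112720), a paracrine ligand made by epithelial and mesenchymal cells, stood at 1.82, 2.90 and 1.13 CPM in P1. It stood at 0.247, 0.390 and 0.486 CPM in CP1 with 0.154, 0.393, 0.502 and 0.233 CPM across CP2. The CP tumours shared a narrow range below P1, based on 31 counts in CP1 and 27 in CP2. The log2 fold changes were -2.38 ± 0.46 (adjusted p = 0.0021) and -2.58 ± 0.44 (adjusted p = 6.908e-04). Removal of P1 replicates 1 and 2 gave -1.62, not called (adjusted p = 0.0589), and -1.82 (adjusted p = 0.0283), and with CP1 replicates 2 and 3 removed the first was -2.95 (adjusted p = 0.0251).

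Fgf18 (ENSMUSG00000057967, chromosome 11: 33117430 to 33147400), a ligand known from bone and lung development and as a target of Wnt signalling, was the one ligand gene called higher in any comparison. It had 2.13, 1.47 and 1.79 CPM in the P1 tumours, 1.13, 1.10 and 1.62 in those of CP1 and 2.47, 2.95, 2.24 and 2.93 in those of CP2. All CP2 tumours were above all others. CP2 exceeded CP1 by 1.04 ± 0.24 (adjusted p = 0.0059), whereas neither CP line differed from P1 by the test (-0.48 ± 0.25 and 0.56 ± 0.23, adjusted p = 0.142 and 0.0613). In the test against a 1.5-fold change the call against CP1 was lost.

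The intracellular family members had 1 large change. Fgf13 (ENSMUSG00000031137, chromosome X: 59062145 to 59568071) measured 21.8, 17.2 and 27.5 CPM in P1. It measured 0.318, 0.0974 and 0.0810 CPM in CP1 and 0.0514, 0, 0.228 and 0.140 CPM in CP2, from 14 and 9 counts in all. The lowest P1 tumour, at 17.2 CPM, lay far above the highest CP tumour, at 0.318 CPM. The fitted log2 fold changes were -7.01 ± 0.60 in CP1 and -7.62 ± 0.56 in CP2. Fgf13 passed the filter through P1 alone, so a difference followed from passing and no p-value against P1 is given. With so few counts the size depended on single tumours. The CP1 value was -7.88 without CP1 replicate 1 and -6.10 without CP1 replicates 2 and 3, and the CP2 value was -8.31 without CP2 replicate 3. Nerve and Schwann cell markers, 5 of 6 tested, took 0.00158% to 0.00399% of the counts in every tumour, and their summed shares overlapped between the lines. Of the 5, 1 was called lower in CP1 and 2 in CP2 than in P1, and 1 was higher and 2 lower in CP2 than in CP1. Fgf11 ranged from 1.43 to 3.85 CPM over all 10 tumours and was called in no comparison. Fgf12 and Fgf14 did not pass the filter, with 0 to 9 counts per tumour.

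**Figure D4:**
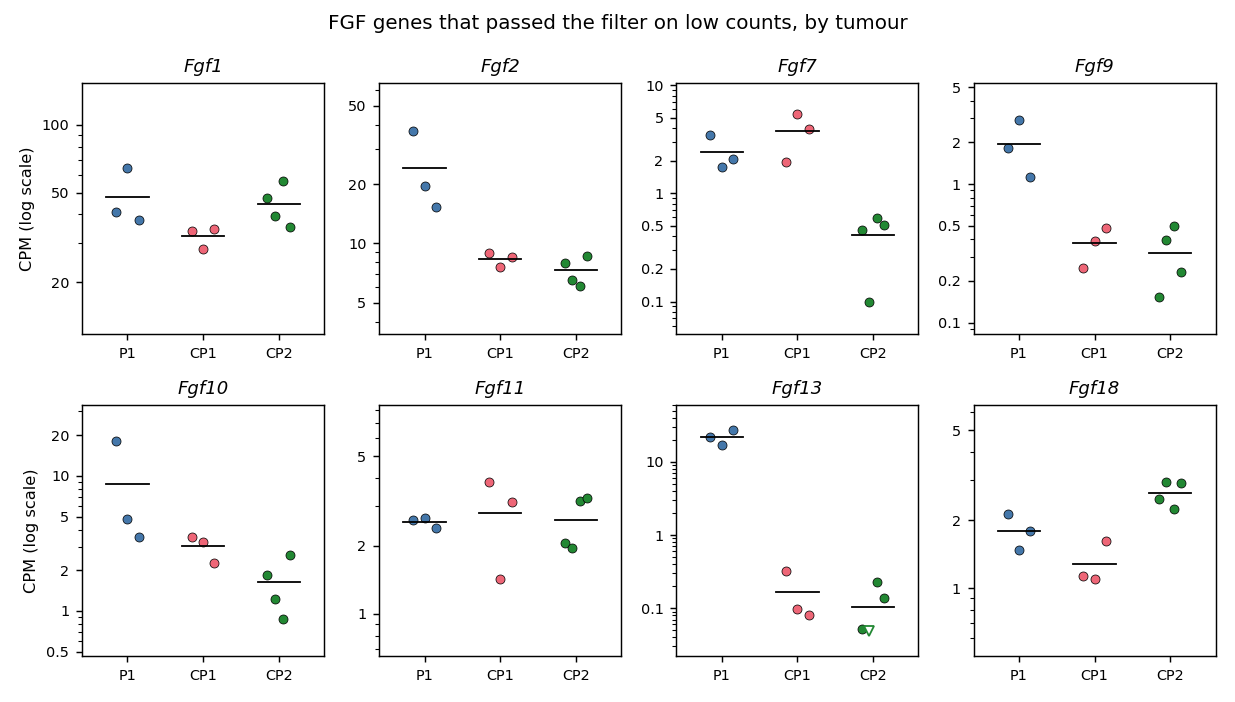
Levels of the 8 tested Fgf genes in each tumour (dots; CPM on a log axis), with group means as black lines and open triangles for 0 counts at the CPM of 1 count. Fgf13 separates P1 from both CP lines, Fgf7 separates CP2 from the others, and Fgf1 lies between 28.1 and 64.5 CPM in all 10 tumours.

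The 14 Fgf genes that did not pass the filter had 0 to 18 counts in any tumour and were not tested. Fgf4 and Fgf6 had 0 counts in all 10. Fgf3, a ligand known for activation by the mouse mammary tumour virus, had 0 counts in P1 and CP1 and 7, 5, 6 and 5 counts in the CP2 tumours. With a floor of 3 counts over a group, its summed counts were at least 8.47-fold higher in CP2 than in P1 and at least 7.72-fold higher than in CP1. Fgf20 had 0 counts in P1 and CP1 and 2, 2, 3 and 2 counts in CP2, at least 3.31-fold and 3.02-fold higher; it shares 202 exon bases with Micu3 on the opposite strand, which was counted at 8.61, 4.89 and 7.07 CPM on average. Both genes were thus seen in each of the 4 CP2 tumours and in none of the other 6, although the CP2 libraries were the smallest. Fgf23, a hormone gene of bone, had 22 counts in P1, 39 in CP1 and 1 in CP2. The ratio of scaled counts was 19.9 for P1 to CP2 (95% exact interval 3.22 to 822) and 38.7 for CP1 to CP2 (6.56 to 1569). Fgf15, the mouse partner of human FGF19 and the known ligand of Fgfr4, had 11 counts in P1, 1 in CP1 and 2 in CP2. Fgf21 had 13, 24 and 5 counts, of which 17 came from CP1 replicate 1. The remaining genes were Fgf5, Fgf8, Fgf16, Fgf17 and Fgf22, with 0 to 5 counts per tumour. These intervals and floors cover counting error only.

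Most of the feedback inhibitors and PEA3 factors were higher in the CP lines: 7 of 12 in CP1 and 10 of 12 in CP2 were called higher than P1, and 8 of 12 were called higher in CP2 than in CP1. These were 58.3%, 83.3% and 66.7%, beside 22.4%, 28.3% and 21.3% of all genes called higher. Over all genes, 44.8%, 56.7% and 43.3% were called either way. None was called lower by the test, with 1 lower in CP1, 1 in CP2 and 0 between the CP lines at an unadjusted p below 0.05. DESeq2 and upper-quartile scaling both called Spry2 lower in CP1 and Dusp6 lower in CP2, and 0 lower between the CP lines. The median log2 fold change of the 12 was 0.71 in CP1, 1.71 in CP2 and 0.72 between them, beside -0.01, 0.00 and -0.01 over all genes. With P1 replicates 1 and 2 removed, 8, 10 and 8 were higher, and with CP1 replicates 2 and 3 removed 7, 10 and 8.

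Sprouty proteins are induced by growth factors and dampen the signal from receptor to ERK. Spry1 (ENSMUSG00000037211, chromosome 3: 37639947 to 37644598) measured 25.0, 23.4 and 22.9 CPM across P1, 57.9, 103 and 48.2 across CP1 and 96.9, 79.8, 87.6 and 75.7 across CP2. Both CP lines lay above P1 and overlapped with each other. Spry1 rose by 1.55 ± 0.24 (adjusted p = 5.554e-04) and 1.84 ± 0.24 (adjusted p = 1.137e-04). Between the CP lines the value of 0.28 ± 0.22 was not called (adjusted p = 0.326), but it was 0.68 without CP1 replicate 2, the highest tumour (adjusted p = 0.0034), and 0.55 without CP1 replicates 2 and 3 (adjusted p = 0.0391). Spry4 (ENSMUSG00000024427) gave 11.1, 8.92 and 8.87 CPM for P1, 11.6, 12.8 and 13.1 for CP1 and 31.0, 31.8, 42.9 and 32.1 for CP2. CP2 lay above all other tumours. Spry4 rose by 1.84 ± 0.15 against P1 (adjusted p = 7.298e-06) and 1.46 ± 0.15 against CP1 (adjusted p = 6.298e-05), while CP1 against P1 gave 0.37 ± 0.16, not called (95% interval 0.03 to 0.72, adjusted p = 0.0753; called at 0.47 without P1 replicate 1 and at 0.37 without CP2 replicate 3, adjusted p = 0.0423 and 0.0435).

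Spry3 (ENSMUSG00000061654), the least expressed Sprouty gene per kilobase in every line, lies on the unplaced scaffold GL456233.1. It had 0.277, 0.156 and 0.402 CPM in P1 and 0.212, 0.162 and 0.162 CPM in CP1, and 5.19, 3.24, 4.02 and 4.28 CPM in CP2. All CP2 tumours lay far above all others. The log2 fold change of CP2 was 3.90 ± 0.33 against P1 and 4.51 ± 0.35 against CP1. Spry3 passed the filter mainly through CP2, so a difference followed from passing and no p-value is given for it. Spry2 was counted at 19.3 ± 3.09 CPM (n = 3) in P1, 14.1 ± 2.14 (n = 3) in CP1 and 21 ± 3.13 (n = 4) in CP2. It was called in CP2 against CP1 alone, at 0.58 ± 0.16 (adjusted p = 0.0176), and this call was lost without CP1 replicate 1 (0.48, adjusted p = 0.0665) or without CP1 replicate 2 (0.56, adjusted p = 0.0538). Against P1 the values were -0.45 ± 0.17 in CP1 (adjusted p = 0.0561) and 0.12 ± 0.16 in CP2 (adjusted p = 0.538). The CP1 value was called lower with upper-quartile scaling (-0.49, adjusted p = 0.0401), by DESeq2 (-0.47, adjusted p = 0.0329), and without P1 replicate 3, CP1 replicate 3 or CP2 replicate 1 (-0.56, -0.57 and -0.45, adjusted p = 0.0324, 0.0394 and 0.0450).

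Spred proteins hold back the activation of Raf by Ras at the membrane. All 3 genes were higher in both CP lines than in P1. Spred1 (ENSMUSG00000027351, chromosome 2: 117121374 to 117182279) had 84.0, 71.9 and 59.7 CPM in the P1 tumours, 131, 103 and 118 in those of CP1 and 172, 161, 161 and 145 in those of CP2. The 3 lines did not overlap. It rose by 0.71 ± 0.14 in CP1 (adjusted p = 0.0019) and 1.15 ± 0.13 in CP2 (adjusted p = 5.015e-05). CP2 against CP1 was 0.44 ± 0.13 (adjusted p = 0.0183), a call lost without CP1 replicate 2 (0.36, adjusted p = 0.0741), without CP1 replicate 3 (0.44, adjusted p = 0.0507) and without both (0.28, adjusted p = 0.311).

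Spred2 (ENSMUSG00000045671, chromosome 11: 19924375 to 20024026) measured 55.5, 49.6 and 38.4 CPM across P1, 76.1, 78.9 and 80.7 across CP1 and 162, 149, 128 and 134 across CP2. The order P1, CP1, CP2 held without overlap. The log2 fold changes were 0.71 ± 0.14 (adjusted p = 0.0019), 1.58 ± 0.13 (adjusted p = 8.071e-06) and, between the CP lines, 0.87 ± 0.13 (adjusted p = 5.779e-04). Spred3 (ENSMUSG00000037239, chromosome 7: 29158829 to 29170411), the least expressed of the Spred genes per kilobase, gave 7.52, 5.89 and 3.76 CPM for P1, 17.9, 14.1 and 16.8 for CP1 and 13.3, 15.4, 16.4 and 16.2 for CP2. It was higher in both CP lines, by 1.5 ± 0.23 (adjusted p = 4.822e-04) and 1.42 ± 0.22 (adjusted p = 3.818e-04), and the CP lines overlapped. In the test against a 1.5-fold change the CP1 calls of Spred1 and Spred2 were lost.

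The ERK phosphatase genes parted. Dusp4 (ENSMUSG00000031530, chromosome 8: 34807297 to 34819894), a nuclear phosphatase, had 26.3, 23.9 and 9.27 CPM in the P1 tumours, 50.7, 47.1 and 91.5 in those of CP1 and 154, 152, 150 and 168 in those of CP2. The 3 lines did not overlap, and the 4 CP2 tumours were close together. It rose by 1.67 ± 0.36 in CP1 (adjusted p = 0.0038) and 2.97 ± 0.37 in CP2 (adjusted p = 8.817e-05), and CP2 exceeded CP1 by 1.30 ± 0.34 (adjusted p = 0.0113). With P1 replicates 1 and 2 removed, which leaves the lowest P1 tumour, the first pair of values was 2.74 and 4.04 (adjusted p = 0.0017 and 2.69e-04). Dusp6, the cytoplasmic ERK phosphatase most often read as a marker of FGF signalling, ranged from 74.6 to 112 CPM in P1, 59.9 to 90.5 in CP1 and 61.5 to 75.1 in CP2. It was called in no comparison of the fit. Its log2 fold changes were -0.18 ± 0.18 in CP1 (95% interval -0.59 to 0.22, adjusted p = 0.447), -0.40 ± 0.17 in CP2 (-0.78 to -0.02, adjusted p = 0.0689) and -0.22 ± 0.17 between them (-0.60 to 0.17, adjusted p = 0.331). The intervals hold no rise above 0.22, and the lower limit for Dusp4 in CP1 was 0.86. In CP2, Dusp6 was called lower with upper-quartile scaling (-0.44, adjusted p = 0.0480), by DESeq2 (-0.42, adjusted p = 0.0432), with no filter on low counts (-0.45, adjusted p = 0.0485) and in a fit of P1 and CP2 alone (-0.41, adjusted p = 0.0382). It was also called lower there without P1 replicate 1 (-0.54, adjusted p = 0.0241), without CP1 replicate 3 (-0.40, adjusted p = 0.0313) and without CP1 replicates 2 and 3 (-0.40, adjusted p = 0.0421).

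The PEA3 factors are ETS transcription factors that act downstream of ERK. Etv1 (ENSMUSG00000004151, chromosome 12: 38779380 to 38870484) measured 2.59, 1.34 and 1.5 CPM across P1, 14.1, 11.7 and 10.8 across CP1 and 16, 11.7, 14.3 and 11.6 across CP2. It was higher in all 7 CP tumours, by 2.75 ± 0.27 (adjusted p = 2.906e-05) and 2.88 ± 0.26 (adjusted p = 1.243e-05), with no call between the CP lines (0.14 ± 0.23, adjusted p = 0.649). Etv4 (ENSMUSG00000017724, chromosome 11: 101769742 to 101785371) gave 17.3, 10.7 and 12.8 CPM for P1, 35.2, 33.4 and 28.8 for CP1 and 95.7, 89.2, 107 and 88.3 for CP2. The lines formed 3 separate steps. Against P1 it rose by 1.25 ± 0.17 (adjusted p = 2.065e-04) and 2.80 ± 0.17 (adjusted p = 1.175e-06), and by 1.55 ± 0.16 between the CP lines (adjusted p = 6.411e-05). Etv5 (ENSMUSG00000013089, chromosome 16: 22381309 to 22439719) measured 19.7, 19.5 and 12.5 CPM in P1, 24.3, 25.6 and 17.8 CPM in CP1, and 43.9, 40.7, 49.0 and 51.0 CPM in CP2. CP1 overlapped with P1 and gave 0.39 ± 0.20, not called (adjusted p = 0.136), but 0.82 and called with P1 replicates 1 and 2 removed (adjusted p = 0.0223). CP2 was higher than P1 by 1.42 ± 0.19 (adjusted p = 1.470e-04) and than CP1 by 1.03 ± 0.19 (adjusted p = 0.0017).

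**Figure D5:**
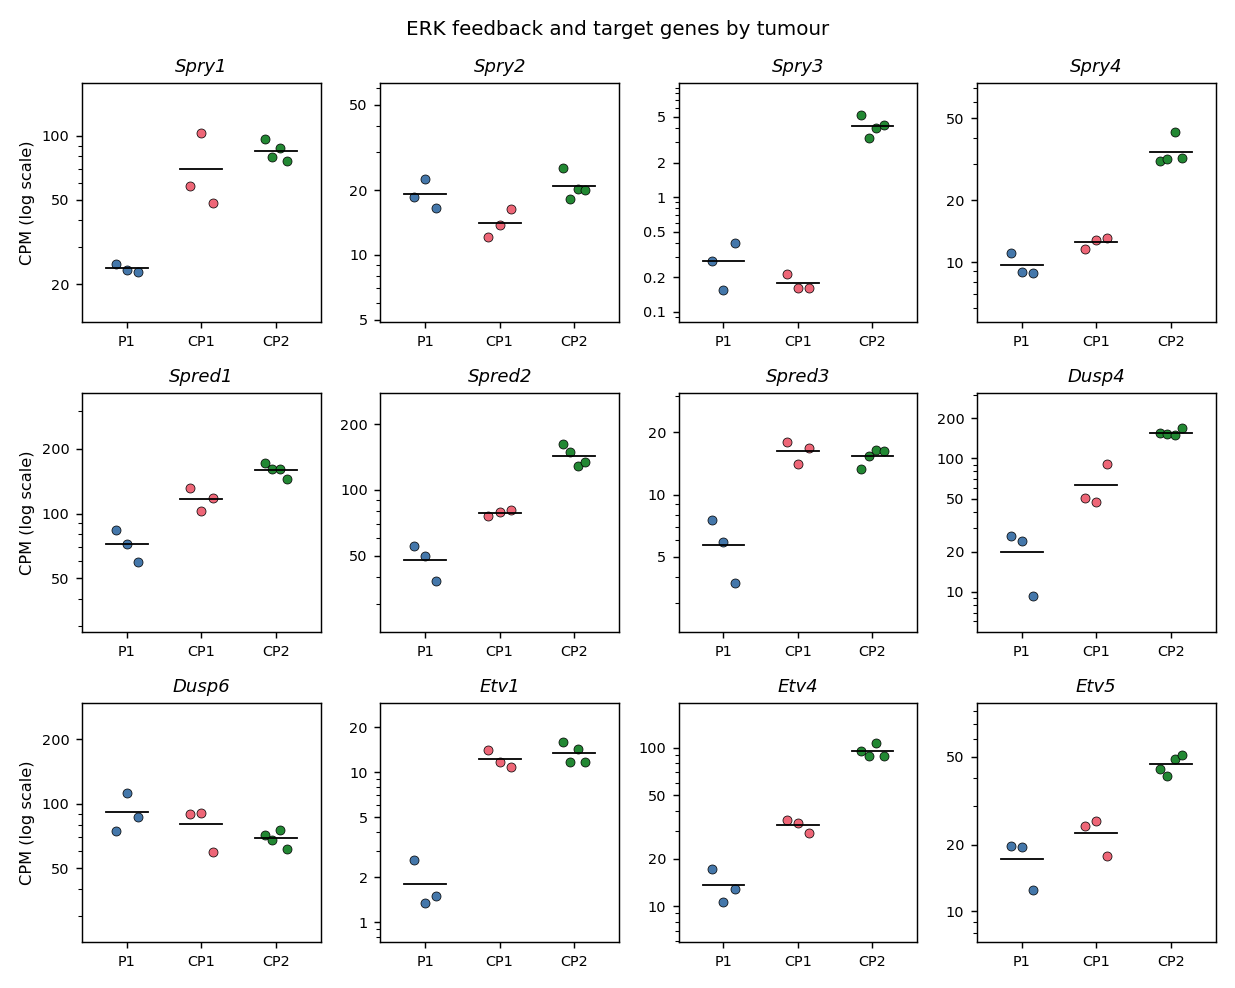
Levels of the 12 feedback genes and targets in each tumour (dots; CPM on a log axis) in P1, CP1 and CP2, with group means as black lines. Spred2, Dusp4 and Etv4 climb in separate steps from P1 through CP1 to CP2, Spry3 and Spry4 are raised in CP2, and Dusp6 lies between 59.9 and 112 CPM throughout.

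The direct comparison of CP2 with CP1 thus called Fgfrl1, Fgf18 and 8 feedback genes and targets higher in CP2, and Fgf7 lower. The genes not called there include Fgfr1, at 0.50 ± 0.23 (95% interval -0.01 to 1.02, adjusted p = 0.106), and Fgfr3, at 1.00 ± 0.47 (-0.04 to 2.04, adjusted p = 0.11), whose CP2 tumours all lay above CP1. Fgfr1 was called without P1 replicate 1 (0.50, adjusted p = 0.0412), and Fgfr3 without CP1 replicate 2 (1.47, adjusted p = 0.0491) and without CP1 replicates 2 and 3 (2.81, adjusted p = 0.0035). Fgfr4 gave 0.73 ± 0.72 (-0.89 to 2.34, adjusted p = 0.442) on its few counts. In the test against a 1.5-fold change 6 genes were higher, with the calls of Fgf18, Spry2, Spred1 and Dusp4 lost.

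Neighbouring genes were described after the values had been seen. The tested genes within 5 Mb of Fgfr4 had a median log2 fold change of -0.08 in CP1 and -0.08 in CP2 (84 genes), those around Fgfr1 0.12 and 0.04 (60 genes), those around Fgfrl1 0.02 and 0.03 (107 genes), and those around Dusp4 -0.29 and 0.06 (37 genes). Around Etv4, which rose, the medians were -0.03 in CP1 and 0.30 in CP2 (237 genes). Around Fgf10 they were -0.10 and -0.42 (23 genes), and around Fgf13, which fell, 0.48 and 0.30 (22 genes). Spry3 had only 2 tested neighbours. A median over such a window cannot show a change confined to a few genes, and the part of the region in any result was not tested. Fgf2 and Spry1 lie 230 kb apart on chromosome 3, and Fgf2 fell while Spry1 rose in both CP lines. Exons of Spry1 overlap the antisense locus Gm42922 over 24.4% of their length, and that locus had 0.630, 0.796 and 0.772 CPM on average.

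Other genes of the pathway were taken from 5 lists. Of 27 tested cofactor and heparan sulphate genes, 8 were higher and 9 lower in CP1 than in P1, 10 and 13 in CP2, and 6 and 8 in CP2 against CP1. These were 63.0%, 85.2% and 51.9% called, beside 44.8%, 56.7% and 43.3% of all genes. The cofactors changed in both directions. Sdc1, a heparan sulphate carrier of epithelia, fell from 1770 ± 221 CPM in P1 to 248 ± 22.2 in CP2 (log2 -2.84 ± 0.13, adjusted p = 3.724e-07). Gpc1, a membrane-anchored heparan sulphate carrier, rose from 161 ± 39.4 CPM to 1464 ± 120 (3.18 ± 0.22, adjusted p = 2.318e-06), and Sdc3 rose to 1203 ± 61.8 CPM in CP1 from 95.3 ± 32.9 in P1 (3.66 ± 0.27, adjusted p = 6.113e-06). Cdh2, N-cadherin, which binds FGFR1, rose to 34.3 ± 7.17 CPM in CP1 and 36.4 ± 2.77 in CP2, against 4.96 ± 0.476 in P1 (2.78 ± 0.17 and 2.87 ± 0.16, adjusted p = 2.112e-06 and 8.620e-07). Flrt3, a membrane protein that binds FGF receptors, fell to 3.65 ± 2.01 CPM in CP1, against 75.7 ± 15.8 in P1 (-4.36 ± 0.38, adjusted p = 1.509e-05). Its relative Flrt2 was higher in CP2 than in CP1 (177 ± 26.6 against 8.20 ± 1.10 CPM, 4.43 ± 0.21, adjusted p = 1.943e-06), as was Hpse, which encodes heparanase (134 ± 10.1 against 16.3 ± 3.43 CPM, 3.04 ± 0.19, adjusted p = 4.870e-06).

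Of 16 adaptors and effectors, 4 were higher and 0 lower in CP1 than in P1 (5 and 0 at an unadjusted p below 0.05, 4 and 0 by DESeq2), 11 and 2 in CP2, and 7 and 3 between the CP lines. As shares called, these counts were 25.0%, 81.2% and 62.5%, beside 44.8%, 56.7% and 43.3% of all genes. These counts depended on single tumours. In CP1, 2 were higher without P1 replicate 2 or CP1 replicate 3 and in a fit of the 2 lines alone. In CP2, 7 were higher without P1 replicate 2, and 0 were lower without P1 replicate 1 or without CP2 replicate 2, 3 or 4. In the test against a 1.5-fold change, 2, 3 and 2 were higher and 0 lower in the 3 comparisons. Frs2, the docking protein of the FGF receptors, rose to 92.1 ± 2.68 CPM in CP1, against 39.4 ± 12.4 in P1 (1.23 ± 0.21, adjusted p = 9.102e-04). In CP2, Frs2 was higher than in P1 (0.51 ± 0.19, adjusted p = 0.0457) and lower than in CP1 (-0.72 ± 0.19, adjusted p = 0.0130). Frs3, its relative, was higher in CP2 than in P1 (5.89 ± 0.565 against 3.09 ± 0.491 CPM, 0.93 ± 0.18, adjusted p = 0.0014). Nf1 rose more in CP2 (133 ± 9.71 against 47.0 ± 6.56 CPM, 1.51 ± 0.11, adjusted p = 3.991e-06), and Cblb rose in CP1 (59.1 ± 10.5 against 25.5 ± 2.41 CPM, 1.21 ± 0.16, adjusted p = 1.747e-04). The 2 lower in CP2 than in P1 were Gab1 and Gab2 (-0.41 ± 0.13 and -0.51 ± 0.19, adjusted p = 0.0243 and 0.0382). Of 16 genes of the cascade from Ras to ERK and its ribosomal S6 kinases, 2 were higher and 3 lower in CP1, 5 and 7 in CP2, and 5 and 5 between the CP lines. Rps6ka1 fell to 24.8 ± 5.24 CPM in CP1 and 28.3 ± 1.07 in CP2, against 130 ± 3.13 in P1 (-2.39 ± 0.14 and -2.20 ± 0.13, adjusted p = 2.119e-06 and 9.771e-07). The scaffold gene Ksr1 was higher in CP2 than in P1 (45.5 ± 5.84 against 25.1 ± 2.71 CPM, 0.86 ± 0.15, adjusted p = 7.455e-04). In CP1, 31.2% of the cascade genes were called, below the 44.8% of all genes, and in CP2 75.0% beside 56.7%. Without P1 replicate 3 only 1 was higher in CP1, and without CP1 replicate 1 the 5 higher between the CP lines were 3. In the test against a 1.5-fold change, 2 were higher and 2 lower in CP1, 1 and 2 in CP2, and 0 and 2 between the CP lines.

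Of 32 other genes known to respond to ERK, 8 were higher and 14 lower in CP1 than in P1, 6 and 12 in CP2, and 9 and 13 in CP2 against CP1. These were 68.8%, 56.2% and 68.8% called, beside 44.8%, 56.7% and 43.3% of all genes, so the CP2 share against P1 was near that of all genes. The 14 lower in CP1 were 9 with P1 replicates 1 and 2 removed, 7 with CP1 replicates 2 and 3 removed and 4 in the test against a 1.5-fold change. Their median log2 fold changes were -0.50, -0.12 and -0.20. This differs in sign from the medians of the 12 feedback genes and targets given above, and the difference was not tested. Immediate-early Fos fell to 23.2 ± 6.50 CPM in CP1, against 113 ± 50.6 in P1 (-2.28 ± 0.43, adjusted p = 0.0017). Dusp9, another ERK phosphatase, fell from 7.87 ± 0.842 CPM to 0.683 ± 0.357 in CP2 (-3.53 ± 0.34, adjusted p = 1.913e-05). Fosl1 rose from 11.1 ± 3.30 CPM to 52.4 ± 19.9 in CP1 (2.23 ± 0.29, adjusted p = 1.591e-04), and Ccnd1, cyclin D1, from 422 ± 64.7 CPM to 1074 ± 106 in CP2 (1.35 ± 0.15, adjusted p = 4.281e-05). Il17rd, also called Sef, an inhibitor of FGF signalling, was higher in CP2 than in CP1 (33.9 ± 3.17 against 8.81 ± 4.49 CPM, 1.94 ± 0.32, adjusted p = 0.0010). Against P1, at 20.6 ± 6.50 CPM, CP1 was called lower (-1.22 ± 0.33, adjusted p = 0.0124) and CP2 was not called (0.72 ± 0.30, adjusted p = 0.0683). Of 17 other ETS factors, 3 were higher and 6 lower in CP1, 4 and 6 in CP2, and 0 and 3 between the CP lines (1 and 4 at an unadjusted p below 0.05, 0 and 3 by DESeq2). The shares called were 52.9%, 58.8% and 17.6%, beside 44.8%, 56.7% and 43.3% of all genes. The 4 higher in CP2 were 2 without P1 replicate 3, CP2 replicate 1 or CP2 replicate 3 and with no filter on low counts, and 0 in the test against a 1.5-fold change. The epithelial ETS genes Elf3 and Spdef fell from 425 ± 167 and 12.2 ± 5.59 CPM in P1 to 4.36 ± 1.46 and 0.282 ± 0.208 in CP2 (-6.61 ± 0.50 and -5.43 ± 0.83, adjusted p = 4.235e-06 and 3.486e-04), along with the epithelial markers, whose part was not tested. Ets1 rose from 84.9 ± 25.9 CPM to 196 ± 34.4 in CP1 (1.21 ± 0.20, adjusted p = 7.877e-04).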

How the data were processed

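RNA of 10 orthograft tumours was measured by sequencing. The submitters' processing notes name build GRCm38.p3 and, with no role given, HTSeq 0.6.0, TopHat2 2.1.0, Bowtie2 2.2.6.0, FastQC 0.11.4, DESeq2 1.14.1 and R 3.2.3. Parameters, annotation and use of strand are not given in the sources used here. The authors deposited raw counts, whole numbers of reads for each Ensembl gene. Of 47069 gene IDs, 46574 matched GENCODE M21 and 495 did not.

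The tests used edgeR 4.0.16 (R 4.3.3) with filterByExpr (minimum count 10, minimum total 15; about 0.377 CPM in enough tumours), TMM scaling, 1 quasi-likelihood fit of all 10 tumours with a mean per line, and Benjamini-Hochberg adjustment over 17644 genes. CPM use TMM-scaled library sizes (scaling factors 0.874 to 1.06). SEs were obtained as the log2 fold change over the square root of F. Folds against 0 counts use a floor of 3 counts over the group, and 1 to 3 counts give exact 95% binomial intervals. Checks on simulated data preceded the fit. No pair of libraries of a line agreed within sampling noise.

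The genes and lists were chosen with earlier results of these data known. Tested genes called in any comparison with a mean of at least 1 CPM in a line are named with their tumours' values where the log2 fold change is at least 1 in size, otherwise with mean and SD; tested genes without a call are named with their range, and filtered genes with their counts. Of each list and comparison the rule takes up to 2 called genes per direction with a mean of at least 5 CPM; fewer are named. Epcam, Hoxb13 and Msmb check the tissue label. Alternatives were RLE and upper-quartile scaling, DESeq2 1.42.0, no filter, 2 lines only, each tumour left out, P1 replicates 1 and 2 or CP1 replicates 2 and 3 removed, a test against a 1.5-fold change and, chosen after seeing the data, a replicate block of P1 and CP2 tumours with the same title number. Part of the genotypes is not reported here.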

Additional observations from a re-analysis of the deposited data

Results flagged for a closer look

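One value among the 25 tested genes in the 4 CP2 tumours stood apart from its group. Spry4 in CP2 replicate 3 was at 42.9 CPM, with 31.0, 31.8 and 32.1 CPM in the other 3. The gap to the nearest tumour was 0.910 of the whole range, above Dixon's 95% critical value for 4 samples. Chance alone flags about 1 in 20 such groups. The 3 tumours of P1 and of CP1 were too few for this test.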

How the results depend on the processing

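Of 44 called results of single genes, 32 kept their call under all 18 alternatives and 0 reversed. The 32 include the calls of Fgfr4, Fgf13 and Spry3, for which a difference followed from passing the filter. Calls were lost for 8 in the test against a 1.5-fold change, for 5 with P1 replicates 1 and 2 both removed, for 2 with CP1 replicates 2 and 3 both removed, for 1 in fits of 2 lines only, for 2 without P1 replicate 2 and for 1, 2 and 2 without CP1 replicate 1, 2 or 3; no other alternative lost any. The causes were not tested, and fits with fewer tumours hold less information. The count of genes lower in CP1 than in P1, 6, was 3 with P1 replicates 1 and 2 removed and 5 to 9 with 1 tumour left out. Between the CP lines, the 10 genes higher in CP2 were 6 in the test against a 1.5-fold change, and the 1 lower was 2 with no filter, with P1 replicates 1 and 2 removed and with CP1 replicates 2 and 3 removed, and 1 to 2 with 1 tumour left out. Among results not called, all with the cause not tested, the sign turned in these cases. With CP1 replicates 2 and 3 removed, Fgf7 in CP1 was -0.32, and between the CP lines Fgf9 was 0.37, Fgfr2 1.00 and Etv1 -0.07. Fgf1 in CP2 was 0.21 with P1 replicates 1 and 2 removed, and Fgf11 in CP2 was -0.01 with upper-quartile scaling and -0.02 with no filter. With 1 tumour left out, Fgf11 ran from -0.18 to 0.45 in CP1, from -0.10 to 0.14 in CP2 and from -0.42 to 0.20 between the CP lines, and Fgf1 in CP2 from -0.25 to 0.16. Also between the CP lines, Fgf9 then ran from -0.51 to 0.01, Fgf13 from -1.30 to 0.25 and Fgfr2 from -0.37 to 0.30. Scaling alternatives moved the median of all genes by at most 0.04 (log2). An arm left with 1 tumour was assumed to vary like the others. Replicate numbers here follow deposition order and pair no tumours. The titles of P1 and CP2 share 2 sample numbers, 19 and 21, whose meaning is not given. In a fit chosen after seeing the data, of these 4 tumours with that number as a replicate block (1 residual degree of freedom), 12 genes were higher and 6 lower in CP2 than in P1, as without the block. Under the block Fgf10 was not called (-2.35, adjusted p = 0.144) and Fgf1 turned to 0.17, as both also did in the same 4 tumours unblocked (-2.63, adjusted p = 0.0913, and 0.21). Deviations of same-numbered tumours had a correlation of -0.17 over 16867 genes. This value rests on 4 tumours and 1 residual degree of freedom. It cannot show whether same-numbered tumours share more than the number. CP2 libraries were the smallest, with 3 counts at 0.137 to 0.154 CPM, which limits what can be said of genes near detection such as Fgfr4, Fgf13 and the 14 untested Fgf genes.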
